A study of Drosophila melanogaster with 2 samples.

Results

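The genes described here are the nuclear genes for mitochondrial ribosomal proteins, taken as every protein-coding gene of the Ensembl annotation of dm6 whose symbol starts with mRpS or mRpL. There were 73 of them among 13945 protein-coding genes on the 6 main chromosome arms, with 26 named for the small subunit and 47 for the large. Binding of the transcription factor Dp was mapped by chromatin immunoprecipitation and sequencing (ChIP-seq) in whole Drosophila melanogaster embryos of mixed sex, collected over 0 to 24 h, from a transgenic line that carried Dp with GFP fused to its C terminus. There was 1 group with 2 biological replicates, numbered 1 and 3, and no embryos of another genotype, treatment or stage to set them against. The chromatin had been sonicated to 200 to 800 bp. The descriptions of both libraries call them input controls while naming Dp as the antibody's target, and the labels do not reconcile the 2 statements. Since embryos were pooled whole and over a day of development, no peak can be placed in a cell type or stage.

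Mitochondria keep their own ribosomes, which translate the few messenger RNAs of the mitochondrial genome into subunits of the respiratory chain. The ribosomal RNAs come from that genome, but every protein of both subunits is encoded in the nucleus and imported. Many of these proteins descend from bacterial ribosomal proteins, and others were added during the evolution of mitochondria. Dp is the obligate partner of E2F proteins, and E2F-Dp dimers are best known for controlling genes of DNA replication and the cell cycle; they also form part of the dREAM complex, which binds many other promoters.

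A gene was called bound when 1 or more of its annotated transcription starts had the summit of a peak in the authors' thresholded list within 500 bp, and its signal was that of the strongest such peak on the authors' scale. By this rule 63 of the 73 mitochondrial ribosomal protein genes were bound, a share of 86.3% with an exact binomial 95% interval of 76.2 to 93.2%. Over all protein-coding genes the share was 42.2%. Both subunits were covered, with 22 of 26 small subunit genes and 41 of 47 large subunit genes bound. Their peaks were not unusually high: the median signal was 592 at bound members and 738 at other bound genes.

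Short stretches of the reference sequence at some of these promoters are given first, because they show the arrangement on which much of what follows turns. Each is from the RefSeq genome of dm6, written 5′ to 3′ on the strand of the mitochondrial ribosomal protein gene. The first set holds the whole interval between the start of such a gene and that of a neighbour transcribed in the opposite direction, so that the last base printed stands just before the start of the mitochondrial ribosomal protein gene and the first just before that of its neighbour. Of the motifs counted further on, all but the CHR were marked in capitals where they occurred; these turned out to be CGATA, the core of the DNA replication-related element (DRE), on either strand, and at mRpL48 core promoter motif 1.
mRpS18C to CG15535 (chr3R:30423930-30423973, plus strand): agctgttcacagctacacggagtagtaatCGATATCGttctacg
mRpS11 to Ns1 (chr3R:17072676-17072731, plus strand): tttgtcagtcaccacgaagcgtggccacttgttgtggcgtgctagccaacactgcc
mRpS18A to CG31460 (chr3R:8562594-8562672, minus strand): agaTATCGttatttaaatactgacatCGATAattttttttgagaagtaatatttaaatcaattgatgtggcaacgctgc
mRpL47 to CG8176 (chr3R:9515909-9516006, minus strand): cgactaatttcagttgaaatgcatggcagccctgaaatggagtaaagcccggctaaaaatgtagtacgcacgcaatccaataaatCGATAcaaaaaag
mRpL15 to CtIP (chr3L:20436210-20436249, minus strand): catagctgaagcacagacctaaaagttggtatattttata
mRpL51 to Uba4 (chr2L:8517381-8517410, minus strand): aatcactacattttccaacactgccggctt
mRpL48 to CG17660 (chr2L:1710422-1710461, plus strand): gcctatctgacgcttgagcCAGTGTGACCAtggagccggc
mRpL46 to CG2021 (chr3L:1777412-1777438, plus strand): CGATAaCGATAactgtgccgcaaatca
Within these 8 intervals the 2 genes are at most 98 bases apart, and the strongest Dp peak of the mitochondrial ribosomal protein gene was in reach of its neighbour too. The summit did not always lie within the printed bases. At mRpS18C, mRpL51 and mRpL46 it lay past the neighbour's start, by 16, 85 and 18 bp. The intervals of mRpS18C, mRpS18A, mRpL47 and mRpL46 hold the DRE core, while those of mRpS11, mRpL15 and mRpL51 hold none of the marked motifs. The printed set is not complete. The intervals of mRpL2, mRpL28 and mRpL55, also outside exons but not printed, hold none of the marked motifs either. How often such intervals hold the DRE core is therefore not read from the printed set.

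The second set holds matches to the E2F core near Dp summits that lay outside exons, with up to 26 bases on either side. The core was searched on both strands as TTNNCGC with G or C at each N, the sequences that E2F-Dp dimers contact, and capitals mark it.
mRpS9 (chr3R:7902706-7902764, minus strand): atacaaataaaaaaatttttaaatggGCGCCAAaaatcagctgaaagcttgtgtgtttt
mRpS21 (chr3R:13382066-13382105, minus strand): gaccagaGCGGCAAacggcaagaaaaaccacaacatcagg
mRpL30 (chrX:4647743-4647801, plus strand): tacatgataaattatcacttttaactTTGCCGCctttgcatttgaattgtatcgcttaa
mRpL17 (chr3L:264731-264778, plus strand): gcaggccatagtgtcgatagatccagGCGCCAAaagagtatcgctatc
These 4 genes are among the 6 bound members with an E2F core within 100 bp of the summit. The other 2 are mRpS35, with 2 matches, both in an exon, and mRpL53, whose match is not printed. At mRpS9 the centre of the core stands 68 bp before the start and 33 bp from the summit. At mRpL30 it stands 99 bp before the start and also 33 bp from the summit.

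The third set holds the full DRE, TATCGATA, the site of the factor DREF, in capitals. The first 2 genes were bound and the last 3 were not. The search ran within 100 bp of the summit in bound genes, and from 250 bp before to 50 bp after the start in unbound ones. This set is not complete. Matches that met an exon are not printed, those of the bound mRpS18B, mRpL17, mRpL12 and mRpL4 and of the unbound mRpL3. That of the unbound mRpS29 is not printed either. How often bound and unbound members hold a DRE is therefore not read from the set.
mRpL19 (chr3R:8674058-8674108, plus strand): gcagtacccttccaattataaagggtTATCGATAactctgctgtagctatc
mRpL10 (chr2L:203745-203778, plus strand): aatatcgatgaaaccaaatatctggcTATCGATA
mRpS25 (chrX:14582990-14583049, minus strand): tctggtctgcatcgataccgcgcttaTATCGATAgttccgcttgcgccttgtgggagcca
mRpL39 (chr3L:14999667-14999724, minus strand): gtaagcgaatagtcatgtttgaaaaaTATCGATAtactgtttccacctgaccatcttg
mRpL32 (chr3R:31252819-31252871, plus strand): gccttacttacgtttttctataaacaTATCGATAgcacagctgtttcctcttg
The centre of the DRE stands 22 bp before the start of mRpL19 and 5 bp before that of mRpL10. It stands 37 bp before the start of mRpS25, 28 bp before that of mRpL39 and 24 bp before that of mRpL32, so that a DRE beside the start occurred in bound and in unbound members.

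Among the small subunit genes, 22 of 26 were bound (84.6%, interval 65.1 to 95.6%), with a median signal of 455. mRpS9, whose protein has a counterpart in all ribosomes, had the strongest peak, with a signal of 3020.5 in the pooled replicates, 1601.8 in replicate 1 and 1429.9 in replicate 3, at chr3R:7902308-7903009. mRpS14 had 1844.7 pooled, 1004.0 in replicate 1 and 844.2 in replicate 3, and its summit lay 35 bp inside the gene. mRpS17 had 1701.1 pooled, 870.6 in replicate 1 and 860.5 in replicate 3. All 3 encode proteins of the bacterial families. In both replicate lists each stood above every unbound member, which largely follows from choosing the strongest peaks of a list made from these replicates.

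mRpS7 followed with 1447.4 pooled, 773.2 in replicate 1 and 672.6 in replicate 3, at chr2L:10385916-10386781, but the summit of that peak lay 396 bp before its start and 4 bp from the start of Cdk1, the kinase that drives mitosis. A further, weaker thresholded summit lay 197 bp from the start of mRpS7. mRpS10 had a signal of 1117.3 and mRpS34 one of 1035.0; the mRpS34 protein is an addition of mitochondria, and its peak was shared with no other gene. mRpS23 had 836.3 and mRpS16 had 765.8.

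At the low end, mRpS31 had a signal of 254.2, mRpS26 of 240.9 and mRpS18B of 220.8, against a lowest signal of 212.8 in the whole thresholded list. mRpS18B is 1 of 3 Drosophila genes for versions of the same small subunit protein, the others being mRpS18A with 338.8 and mRpS18C with 573.2. All 3 were bound, the strongest of them mRpS18C, whose start is 45 bp from that of a neighbour, and the weakest close to the limit of the list. The symbols, and not structures, assigned genes to subunits here; in the human mitochondrial ribosome the proteins named S18A and S30 sit in the large subunit.

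Among the large subunit genes, 41 of 47 were bound (87.2%, interval 74.3 to 95.2%), with a median signal of 650. mRpL38, for a protein added in mitochondria, had the strongest peak of all members, with 3079.8 in the pooled replicates, 1679.5 in replicate 1 and 1403.8 in replicate 3, at chrX:14225811-14226583. mRpL22, for a protein that lines the exit tunnel of the ribosome, had 2059.8 pooled, 1091.3 in replicate 1 and 955.6 in replicate 3. mRpL30 had 1966.8 pooled, 969.9 in replicate 1 and 995.4 in replicate 3. These peaks differ in position: the summit stood 29 bp before the start of mRpL38 and 66 bp before that of mRpL30, but 413 bp before that of mRpL22 and 86 bp from the start of if, which encodes an integrin subunit.

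mRpL14 had a signal of 1446.2 and mRpL47 one of 1174.7. mRpL42 had 1063.9, mRpL40 had 1052.2 and mRpL13 had 1024.4. mRpL14 and mRpL40 had these peaks to themselves, whereas the other 3 shared theirs. The lowest bound values were 264.4 at mRpL28, 246.8 at mRpL43 and 243.2 at mRpL46. The genes for the stalk and its base, which engage the translation factors, were all bound, with 751.8 at mRpL11, 669.6 at mRpL12 and 367.0 at mRpL10. The summit of the mRpL11 value lay 323 bp before its start and 55 bp from the start of its neighbour HtrA2. A weaker thresholded summit stood 110 bp from the start of mRpL11.

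**Figure D1:**
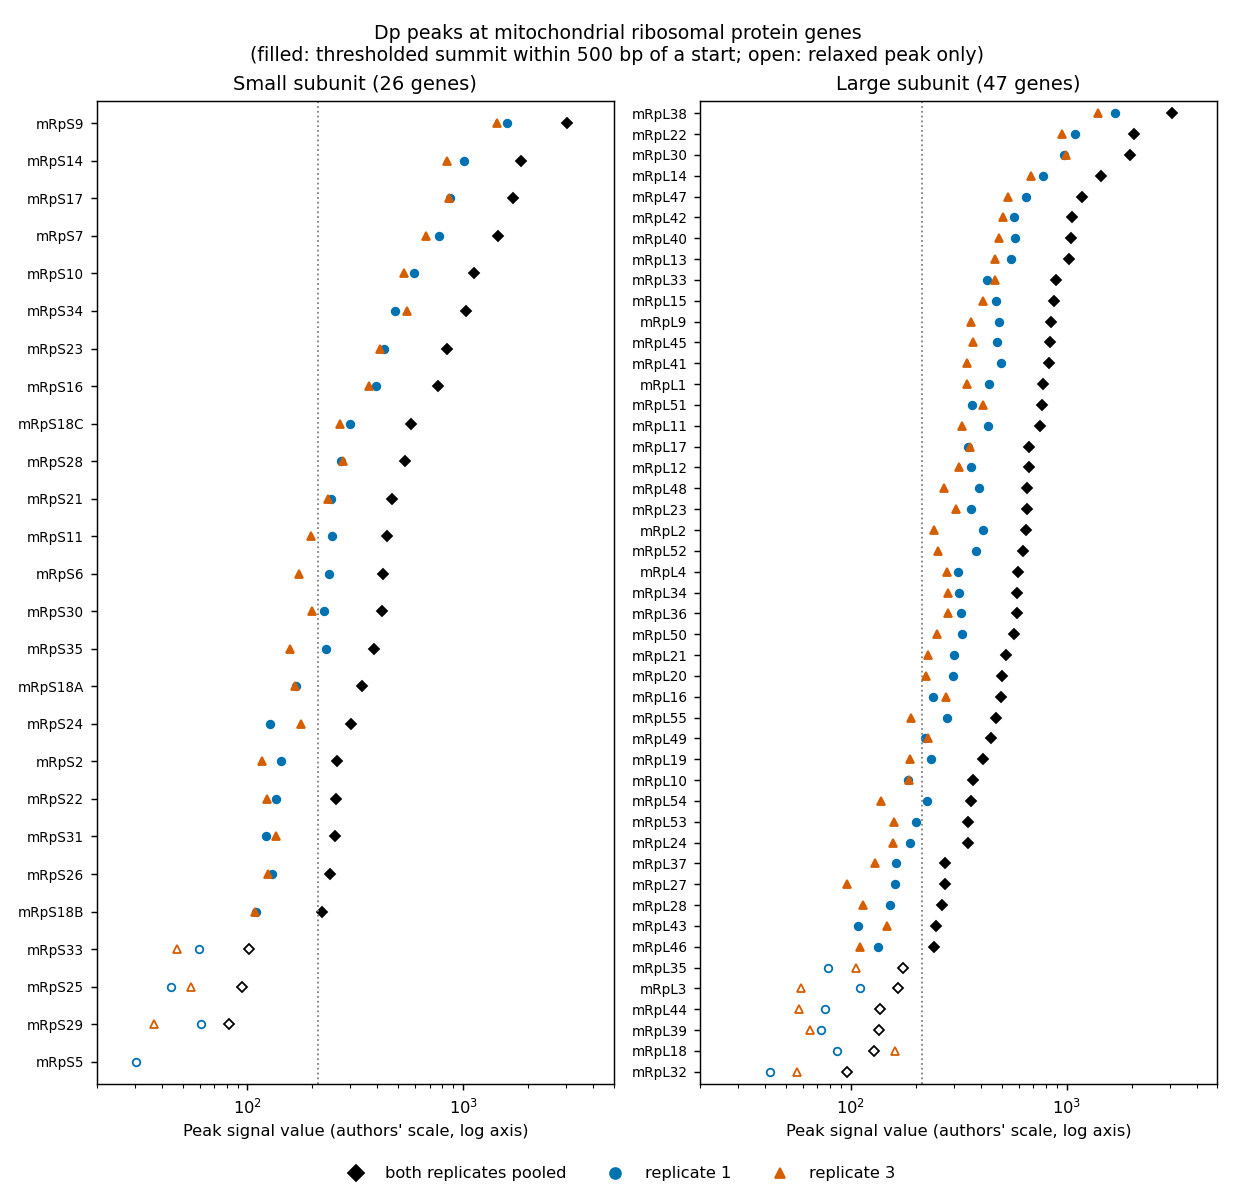
Peak signal on the authors' scale (horizontal, log axis) for each of the 26 small subunit genes at left and 47 large subunit genes at right, in the pooled list (diamonds), replicate 1 (circles) and replicate 3 (triangles). Filled symbols are genes with a thresholded summit within 500 bp of a start, and open symbols those with a relaxed peak at most. The dotted line is the lowest thresholded signal, 212.8, and applies to the pooled values only, since each replicate list has its own scale. That the open diamonds lie left of the line follows largely from the construction of the list.

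Small and large subunit genes differed by −2.62 percentage points in the share bound, and their intervals overlap over most of their length. That small difference depends on how peaks are assigned. It was −21.5 points when each peak was given to its nearest start only, with 42.3% of small and 63.8% of large subunit genes bound, where the share over all protein-coding genes was 32.9%. It was −25.7 points when a start had to lie inside the peak interval, with 61.5% of small and 87.2% of large subunit genes bound, where the share over all protein-coding genes was 38.3%.

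The median signal of small subunit genes was 0.701 times that of large subunit genes, or −0.51 on the log2 scale. The log2 ratio was −0.17 by the peaks of replicate 3 alone and 0.23 when each peak was given to its nearest start only, so that the order changed with the assignment of peaks. It was 0.59 with only the 2914 strongest of the 5828 peaks, a setting that selects on the signal itself. The difference was not tested.

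A split by origin gave a like result. Of the genes for proteins of bacterial families 40 of 45 were bound (88.9%), and of those for proteins added in mitochondria 23 of 28 (82.1%), a difference of 6.75 percentage points. The lowest share was in the mitochondrial additions of the small subunit, with 7 of 10 bound, and the highest in the bacterial families of the small subunit, with 15 of 16. In the large subunit the shares were 25 of 29 for bacterial families and 16 of 18 for mitochondrial additions, the opposite order. Members lay on 5 arms and were bound on each, with 12 of 12 on 2L, 10 of 12 on 2R, 15 of 17 on 3L, 17 of 21 on 3R and 9 of 11 on X.

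A further 2 small subunit genes carry names of their own and so fall outside the symbol rule. tko, which encodes mitochondrial ribosomal protein S12 and whose mutants are sensitive to mechanical shock, had a signal of 3479.6 pooled, 1971.9 in replicate 1 and 1521.4 in replicate 3, above every member. bonsai, which encodes the S15 protein, had 292.1 pooled, 183.7 in replicate 1 and 119.7 in replicate 3, and shared its peak with Cdk9, a kinase of transcription elongation. The 2 genes thus lay near the opposite ends of the range of the members.

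The 10 unbound members were mRpS5, mRpS25, mRpS29 and mRpS33 of the small subunit and mRpL3, mRpL18, mRpL32, mRpL35, mRpL39 and mRpL44 of the large. In 9 of them a weaker peak of the pooled relaxed list lay within 500 bp of a start. Over all members 72 of 73 had such a peak (98.6%), where the share over all protein-coding genes was 60.3%. A relaxed peak of each replicate was likewise in reach of 72 of 73 members, where the share over all protein-coding genes was 56.3%. The exception was mRpS5, with a signal of 30.3 in replicate 1, no pooled peak and none in replicate 3. The replicates were called separately, so 9 members below the threshold had a relaxed peak in both. The pooled relaxed list is labelled as holding peaks and background, so an entry in it is not by itself evidence of binding.

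mRpL35 came nearest to the threshold, with 174.4 pooled, 78.4 in replicate 1 and 106.1 in replicate 3. mRpL3, for a protein that helps shape the peptidyl transferase centre, had 164.6 pooled, 110.0 in replicate 1 and 58.8 in replicate 3. mRpL44 had 135.8 pooled, 76.3 in replicate 1 and 57.7 in replicate 3. In these the pooled value lay below the 212.8 of the weakest thresholded peak, while mRpS18B just inside had 220.8.

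mRpL39 had a pooled signal of 134.7, with 72.4 in replicate 1 and 64.9 in replicate 3. mRpL18 had 128.6 pooled, 86.4 in replicate 1 and 160.3 in replicate 3, and it became bound when replicate 3 alone was used. mRpS33 had 101.9 pooled, 59.7 in replicate 1 and 46.9 in replicate 3. The pooled relaxed summit stood 24 bp from the start of mRpS33, but 202 bp from that of mRpL39 and 435 bp from that of mRpL18.

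mRpL32 had 96.2 pooled, 42.3 in replicate 1 and 56.4 in replicate 3. mRpS25 had 94.0 pooled, 44.3 in replicate 1 and 54.8 in replicate 3. mRpS29, whose protein is the GTP-binding DAP3 of mammals, had 81.8 pooled, 61.0 in replicate 1 and 37.0 in replicate 3. The relaxed summits of mRpS25 and mRpS29 stood 19 and 24 bp from the start, and that of mRpL32 stood 451 bp away. Of the 10, 3 had a thresholded summit just out of reach, at 648 bp for mRpL18, 652 bp for mRpL32 and 660 bp for mRpS29. In the other 7 the nearest one lay between 1123 bp, at mRpS5, and 7569 bp, at mRpL39.

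Both replicates gave a value at each of the 63 bound members. Each replicate list has its own unstated scale, so an offset between them is not read, and only the spread around it is given. The log2 difference of the 2 values at single members had an SD of 0.25, which is 1.19-fold, around its median, and the SD over all bound genes was 0.28. Across members, which are not independent replicates, Pearson's r of log2 signal was 0.964 and Spearman's rho 0.955. The thresholded list keeps peaks that are reproducible between these same replicates, and the peaks were matched by position, so closeness was selected for. As replicate 3 minus replicate 1, the median log2 difference was −0.20, and the members farthest below it were mRpL2, for a protein at the peptidyl transferase centre, and mRpL27, both at −0.74. Farthest above it were mRpS24 at 0.47 and mRpL43 at 0.45. mRpL2 had 408.5 in replicate 1 and 243.9 in replicate 3, and mRpS24 had 127.5 in replicate 1 and 176.9 in replicate 3.

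Most members were bound, but few of them by the strongest peaks. No member's peak was among the 300 strongest (interval 0 to 5.69%), while those of 313 of the 5891 bound genes were (5.31%). That interval contains the share over all bound genes. The 1000 strongest peaks held that of 2 of 63 bound members (3.17%), mRpL38 and mRpS9, and of 1097 of 5891 bound genes (18.6%). For the 2000 strongest the counts were 13 of 63 (20.6%) and 2250 of 5891 (38.2%). The 2914 strongest peaks held the peak of 29 of 63 bound members (46.0%) and of 3326 of 5891 bound genes overall (56.5%). Counted over all genes, 39.7% of members and 23.9% of all protein-coding genes were bound by those peaks.

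**Figure D2:**
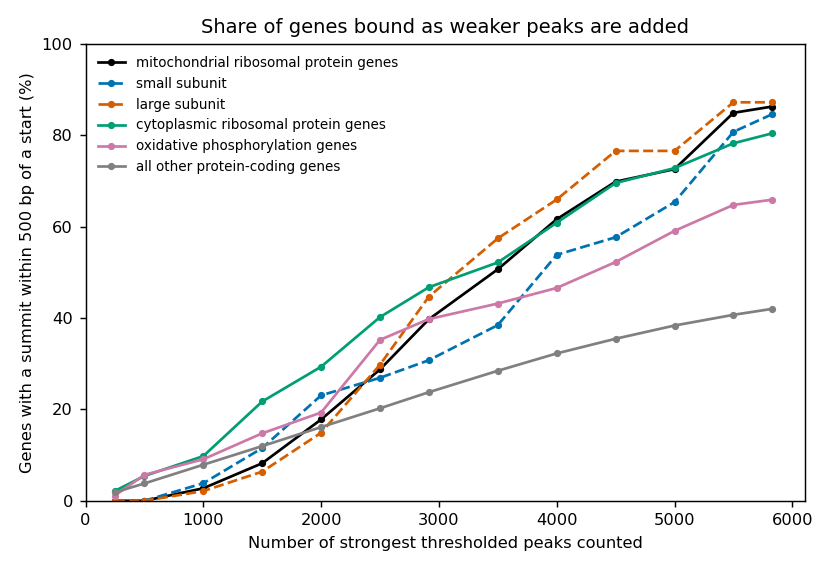
Percentage of genes with a summit within 500 bp of a start (vertical) as the thresholded peaks are added from strongest to weakest (horizontal, number of peaks counted), for all members, each subunit, cytoplasmic ribosomal protein genes, oxidative phosphorylation genes and all other protein-coding genes. With 1000 peaks 2.74% of members and 7.89% of other genes were bound; at 2000 peaks the shares were 17.8% and 16.1%, and with all 5828 they were 86.3% and 42.0%.

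The curves of members and of other protein-coding genes cross between 1500 and 2000 peaks. At 4000 peaks 61.6% of members and 32.3% of other genes were bound, and at 5500 peaks 84.9% and 40.7%. Cytoplasmic ribosomal protein genes, 74 of 92 of which were bound with a median signal of 773, ran above the members among the strongest peaks and ended slightly below them at 80.4%. Oxidative phosphorylation genes, which encode subunits of the respiratory chain and the ATP synthase, ended at 65.9%, with 58 of 88 bound and a median signal of 815. The members' median signal was 0.766 times that of the cytoplasmic ribosomal protein genes and 0.726 times that of the oxidative phosphorylation genes.

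Dp summits stood mostly upstream of the members' starts. The median distance was 58 bp, where that over all bound genes was 69 bp. The summit lay within 100 bp of the start in 42 of 63 (66.7%), where the share over all bound genes was 61.4%. It lay upstream of the start in 59 of 63 (93.7%), where the share over all bound genes was 91.5%. By annotation 52 summits were intergenic, 10 lay in a 5′ UTR and 1 in an intron. The median distance was 114.5 bp for small and 57 bp for large subunit genes.

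Many peaks stood between a member and a neighbouring gene. The summit of 49 of 63 bound members (77.8%, interval 65.5 to 87.3%) was also within 500 bp of the start of another protein-coding gene, and over all bound genes the share was 58.5%. With a reach of 250 bp these shares were 56.9% and 44.2%. It was 19 of 22 for small and 30 of 41 for large subunit genes. In 47 of the 49 the nearest partner was divergent, that is, transcribed away from the member in the opposite direction. The other 2 shared a start and strand with a partner, which were mRpL13 with CG10602 and mRpL53 with CG33155; at these a peak cannot be assigned to either gene.

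Among the strongest small subunit genes the partners were Naa15-16, for a subunit of an N-terminal acetyltransferase (with mRpS14), Nop60B, for the pseudouridine synthase of nucleoli (with mRpS17), Cdk1 (with mRpS7), the arginine methyltransferase gene Art3 (with mRpS10), CenG1A (with mRpS23) and cg, for a zinc finger protein (with mRpS16). Among the strongest large subunit genes they were CG11674 (with mRpL38), if (with mRpL22), HLH4C, for a basic helix-loop-helix protein (with mRpL30), CG8176 and the histone demethylase gene Kdm3 (with mRpL47), and PIG-N, for an enzyme of GPI anchors (with mRpL42). Among members with the weakest peaks the partners included hzg (mRpS31), CG13698 (mRpS26), Kua (mRpS18B), CG30183 (mRpL43) and CG2021 (mRpL46). At members with the widest replicate differences they were Apc2, a gene of the adenomatous polyposis coli family (mRpS24), the forkhead factor gene FoxK (mRpL2) and CG15435 (mRpL27). Others, picked out after their values were seen, were CtIP, for a factor of DNA end resection (with mRpL15), rept, for an AAA ATPase (with mRpL21), mei-P22, needed for meiotic double-strand breaks (with mRpL50), and trr, for a histone methyltransferase (with mRpL16). ATPsynD, for a subunit of the ATP synthase, is the partner of mRpL55.

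The summit of a shared peak was nearer to the member in 21 of 49, nearer to the partner in 26 and equally far in 2. For small subunit genes the counts were 6 nearer to the member and 13 to the partner. For large subunit genes they were 15 nearer to the member, 13 to the partner and 2 equal. In 14 bound members, 9 of 22 small and 5 of 41 large subunit genes, the summit of the strongest peak stood more than 200 bp from the start. In all 14 that summit was shared and nearer to the partner, though some of the 14 also had a weaker thresholded summit closer to their own start. Thus some members count as bound through a peak that sits at the neighbour's start. The nearer start at shared summits and the direction of partners were not counted over all bound genes. Neither is therefore read as particular to the members.

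mRpS30 is such a case, with its summit 435 bp away and 29 bp from the start of Paf-AHalpha, a platelet-activating factor acetylhydrolase gene, and so is mRpS6, with its summit 433 bp away and 15 bp from that of Cip4. mRpS6 also had a weaker thresholded summit at 188 bp. The same held for mRpS7 at 197 bp, mRpL11 at 110 bp, mRpL22 at 75 bp and mRpL16 at 6 bp. These members count as bound without the peak at the neighbour's start. When each peak was given only to the nearest start, 56.2% of members and 32.9% of all protein-coding genes were bound.

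**Figure D3:**
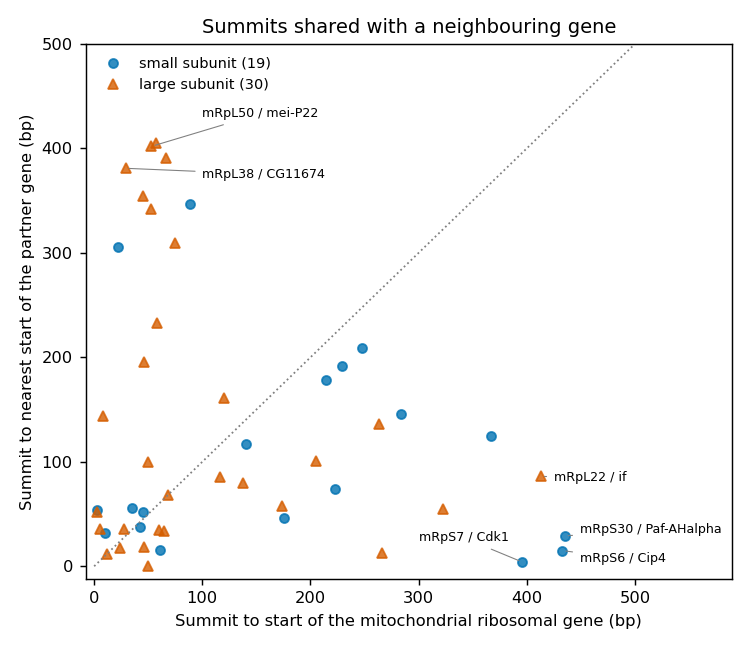
Distance in bp from the summit to the start of the mitochondrial ribosomal protein gene (horizontal) and to the nearest start of the partner gene (vertical) for the 19 small subunit genes (circles) and 30 large subunit genes (triangles) with a shared peak. Points below the dotted diagonal, 26 of 49, have the summit nearer to the partner, and every member with its summit more than 200 bp away lies there; 6 pairs are named.

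The head-to-head arrangement can be counted from the annotation alone, without the peaks. A start on the opposite strand, pointing away and within 500 bp, was present for 53 of 73 members (72.6%, interval 60.9 to 82.4%), with 19 of 26 small and 34 of 47 large subunit genes. It was present for 39.1% of cytoplasmic ribosomal protein genes, 44.3% of oxidative phosphorylation genes and 27.1% of all genes that are not members. The share of all protein-coding genes bound was 81.7% with such a neighbour and 27.4% without one. Among members it was 48 of 53 (90.6%) with a head-to-head neighbour and 15 of 20 (75%) without.

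By subunit, all 19 small subunit genes with a head-to-head neighbour were bound, and 3 of the 7 without one were: mRpS9, mRpS34 and mRpS35. Of the large subunit genes 29 of 34 with such a neighbour and 12 of 13 without were bound. The 5 unbound members with a neighbour were mRpL18, at 20 bp between the starts, mRpL35 at 192 bp, mRpL32 at 264 bp, mRpL39 at 285 bp and mRpL44 at 290 bp. The 5 without were mRpS5, mRpS25, mRpS29, mRpS33 and mRpL3. These counts are small, and a head-to-head neighbour and the member's own promoter cannot be told apart at a peak between them.

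Shared peaks had the lower median signal. The median signal was 571 at the 49 members with a shared peak and 747 at the 14 with a peak of their own, a ratio of 0.764, and over all bound genes the ratio was 0.670. The order was thus the same across bound genes in general. By subunit the medians were 441 at 19 shared and 1035 at only 3 unshared small subunit genes. In the large subunit they were close, with 639 at 30 shared and 670 at 11 unshared genes. Among its bacterial families the order was the reverse, with 663 at 18 shared and 594 at 7 unshared genes.

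Motifs were counted within 100 bp of each summit, on both strands, in 63 member summits and 5044 other thresholded summits near a start. The E2F core, as spelled above, occurred at 6 member summits (9.52%, interval 3.58 to 19.6%) and at 18.3% of the others. The cell cycle homology region (CHR), searched as TTNGAA with T or C at N and known as a site of the dREAM complex, occurred at 27 (42.9%) and at 48.9% of the others. The full DRE occurred at 6 (9.52%) and at 15.8% of the others, and its core CGATA, which the full DRE contains, at 33 (52.4%) and 53.6%. None of these was more frequent at members than at other promoter summits.

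The E-box CACGTG, a site of Myc and related factors, occurred at 5 member summits (7.94%, interval 2.63 to 17.6%) and at 3.15% of the others. The NRG element, searched as TTACATAA, TTACGTAA, TTATATAA or TTATGTAA, occurred at 4 (6.35%, interval 1.76 to 15.5%) and at 3.19% of the others. Core promoter motif 1 occurred at 5 (7.94%) and at 7.87% of the others, and the NRF1 site at none and at 0.297% of the others. The members' intervals for the E-box, the NRG element and motif 1 contain the share of the other summits, so the counts do not set members apart.

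**Figure D4:**
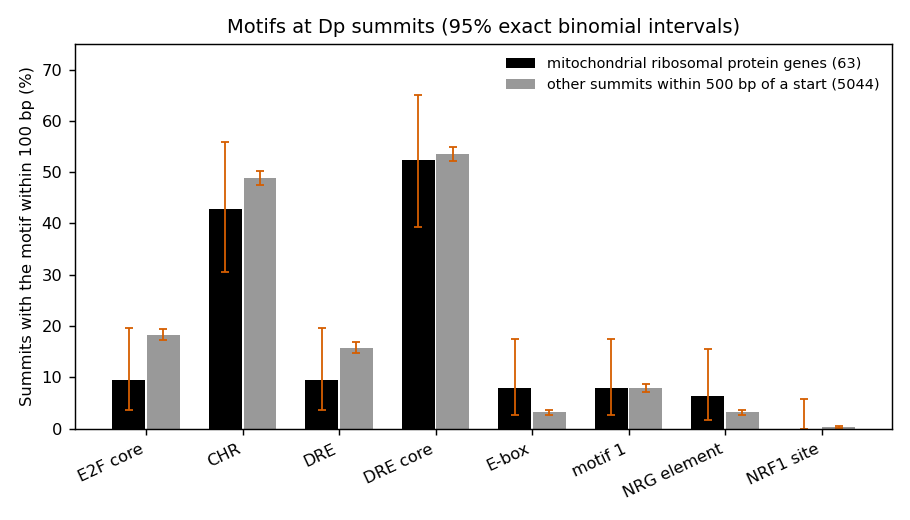
Percentage of Dp summits with each of 8 motifs within 100 bp (vertical), for the 63 summits of mitochondrial ribosomal protein genes (black) and 5044 other summits within 500 bp of a start (grey), with exact binomial 95% intervals. The E2F core and the DRE each stood at 9.52% of member summits, below 18.3% and 15.8% of the others.

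The median signal of the 6 members with an E2F core was 571, against 592 in those without it, while over all bound genes it was 1766 with and 668 without. The values with the core were 3020.5 at mRpS9, 1966.8 at mRpL30, 672.3 at mRpL17, 469.4 at mRpS21, 387.8 at mRpS35 and 350.0 at mRpL53. The strongest member of all, mRpL38, held no match to the E2F core or the CHR within 100 bp of its summit.

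The full DRE was found at 4 of the 14 unshared member summits and at 2 of the 49 shared ones. The DRE core was found at 8 of 22 small subunit summits and 25 of 41 large subunit summits, with intervals of 17.2 to 59.3% and 44.5 to 75.8% that overlap. In promoters, taken from 250 bp before to 50 bp after the start (the one beside the peak in bound genes and the outermost in unbound ones), the full DRE was present in 10 of 63 bound members (15.9%) and in 5 of the 10 unbound ones, mRpS25, mRpS29, mRpL3, mRpL32 and mRpL39. Over all genes it was present in 19.6% of bound and 2.33% of unbound promoters. The interval for 5 of 10 runs from 18.7 to 81.3%.

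Other genes by which mitochondria express their genome were also mostly bound. Of 41 genes in a list of such factors 38 were bound (92.7%, interval 80.1 to 98.5%), where the share over all protein-coding genes was 42.2%. Their median signal was 700. All 9 translation factor genes and all 11 genes for copying and transcribing mitochondrial DNA were bound, as were 5 of 6 for mitochondrial RNA and 13 of 15 for mitochondrial aminoacyl-tRNA synthetases. The highest signals were 3523.5 at LeuRS-m and 3381.7 at IleRS-m, which encode synthetases, 2737.6 at mtDNA-helicase and 2407.8 at mtTFB1, for a methyltransferase homologue needed in mitochondrial translation. LeuRS-m shared its peak with Dhc64C. mtTFB1 has the same start and strand as Ccdc56, so that peak cannot be assigned to either gene. In the list 20 of 38 bound genes shared their peak (52.6%), where the share over all bound genes was 58.5%. The unbound ones were Suv3, for an RNA helicase, with a pooled relaxed signal of 122.5, GluRS-m with 78.6 and TrpRS-m with 205.0, the last just under the threshold.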

How the data were processed

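Peak lists came from 2 Dp ChIP-seq libraries, biological replicates 1 and 3 of 1 group. Nothing says whether they came from separate embryo collections, so their spread may in part be technical. The authors deposited, per the file headers and the descriptions with the files, relaxed lists of 30000 peaks for each replicate and for both pooled, called against 1 control alignment, and a list of 5828 peaks thresholded by irreproducible discovery rate. The peak signal is the authors' own value on an unstated scale and ranks peaks within a list only. The −log10 q deposited was 4.30 for every thresholded peak and was not used. The deposited summit offset gave positions. Not given in the sources used here are the aligner, the caller, any version and the read counts, so depth is unknown. All 5828 thresholded signals were found in the pooled list.

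Genes came from Ensembl release 115 and sequence from the RefSeq genome, both of dm6, the build of the peaks. Coordinates are 1-based. At a bound gene the value of a replicate came from its relaxed peak with the closest summit, at most 150 bp away, and at an unbound gene from its strongest relaxed peak within 500 bp of a start. Printed intervals are exact binomial at 95%, cover counting error only and treat genes as independent, which neighbours sharing a peak are not. With 1 group no test between conditions was possible, and none was run over genes. Counting was tested on simulated data. The members, lists, motifs and settings were chosen with earlier results of these data known.

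Genes named by rule were every unbound member, the 8 strongest and 3 weakest bound members of each subunit, members with a summit 400 to 500 bp away or a nearest one at 500 to 1000 bp, the 2 most extreme replicate differences each way, tko, bonsai, partners of these (that of mRpL28 is not printed), and, among mitochondrial expression genes, those unbound and the 4 strongest. Genes named for a sequence, a motif, a role or another partner were picked after their values were seen. Of the expression symbols searched by name, 3 of 29 were not matched. The analysis ran in Python 3.11.15 with numpy 2.4.6, pandas 2.3.3, scipy 1.17.1 and matplotlib 3.10.9.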

Additional observations from a re-analysis of the deposited data

How the results depend on the processing

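The 10 results were recomputed under alternative settings, each result under those that apply to it. This gave 80 alternative values, of which 65 stayed within their interval or the replicate spread. With each peak given to its nearest start only, the share bound was 56.2% of members and 32.9% of all protein-coding genes. It was 42.3% of small and 63.8% of large subunit genes, a difference of −21.5 points, and the log2 ratio of the subunits' median signal was 0.23. With the 2914 strongest peaks, 39.7% of members, 30.8% of small and 44.7% of large subunit genes were bound. The shares were 56.1% of mitochondrial expression genes and 23.9% of all protein-coding genes. The ratio of the members' median signal to that of other bound genes was then 0.576 (0.802 with all peaks), and the log2 ratio of the subunits was 0.59. With a start required inside the peak interval, 61.5% of small subunit genes and 38.3% of all protein-coding genes were bound, and the difference was −25.7 points. Within 250 bp, 56.9% of bound members and 44.2% of all bound genes shared their peak. The first and second of these settings use fewer peaks or fewer gene assignments by construction; the cause of the other changes was not tested.

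To leave out a replicate, the 5828 strongest peaks of the other's relaxed list were used, with no threshold on reproducibility. The log2 ratio of the subunits was then −0.17 without replicate 1 and −0.55 without replicate 3. Without replicate 1 mRpS2, mRpS18B, mRpL27, mRpL28 and mRpL46 were no longer bound and mRpL18 was. Without replicate 3 mRpS18B and mRpL43 were not. A reach of 250 bp lost mRpS23, mRpS26, mRpS30, mRpL20 and mRpL21, and a reach of 1000 bp gained mRpS29, mRpL18 and mRpL32. The share of shared peaks under nearest-start assignment was not run, since each peak then has 1 gene apart from ties. No paired analysis was possible because there is 1 group and its replicate numbers pair with no other samples.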
